A study of Mus musculus with 4 samples.

Results

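The microRNA genes described here are those of the mouse repeat families mir-467 and mir-669. They were taken by name, as all entries whose name starts with mir-467 or mir-669 followed by a letter, a hyphen or nothing. This gave 46 of the 626 entries of the deposited table, 17 of mir-467 and 29 of mir-669. Numbered copies of one microRNA have an entry each, so the 46 entries carry 23 microRNA names, 8 of mir-467 and 15 of mir-669.

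Small RNA was sequenced on an Ion Torrent PGM from embryoid bodies (EBs) at day 8 and from embryonic stem cells (ESCs) at day 0. Both came from CGR8, a feeder-independent mouse stem cell line whose labels give C57BL/6 as background strain, 129P2/OlaHsd as donor strain and passages 5 to 13. The EBs, aggregates in which stem cells differentiate, were grown without leukemia inhibitory factor (LIF) in 20% serum, as hanging drops of 1000 cells for 2 days and then in suspension for 6 days. The ESCs were kept undifferentiated in 10% serum with 100 U/ml LIF. The comparison asks how the abundance of these microRNAs differs between the day 8 EBs and the ESCs.

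As background, most genes of both families lie in an intron of Sfmbt2, which encodes a Polycomb protein. In the mouse, Sfmbt2 is imprinted and expressed from the paternal allele in extraembryonic tissues, and its intronic microRNA cluster is known for its role in placental development. The cluster grew by local duplication, is specific to rodents, and is also expressed in mouse ESCs. Its primary transcript is cut into hairpins, and each hairpin can give a mature microRNA whose seed, bases 2 to 8, pairs with target transcripts.

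The annotation (GENCODE M21, GRCm38) placed all 46 entries. Sfmbt2 (ENSMUSG00000061186.15) lies on the plus strand at chr2:10370510-10595253, and 43 of the 46 entries lie within it on the same strand. All 43 fall inside a single intron of 62472 bases at chr2:10461473-10523944, which is intron 10 of the transcript Sfmbt2-201 and intron 11 of Sfmbt2-205. None of the 43 overlaps an exon of the gene. They span 51.1 kb, from mir-669f, at chr2:10467229-10467349, to mir-669h, at chr2:10518155-10518279. The other 3 lie on other chromosomes and have no host on their own strand. The entry mir-467f lies on the minus strand at chr11:69635400-69635519, opposite Fxr2, mir-467g on the minus strand at chr5:34732853-34732972, opposite Grk4, and mir-467h on the plus strand at chr9:115381819-115381939, with no overlapping gene annotated on either strand.

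Mature sequences were matched in the RefSeq table (GRCm38.p6) for these 3 entries outside the cluster. No mature entry there was matched to the 43 entries in Sfmbt2, so only these 3 are shown, and none of them was measured. They share a family name with the cluster genes but not the host gene, and capitals mark the seed.
miR-467f: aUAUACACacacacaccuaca
miR-467g: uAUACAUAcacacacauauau
miR-467h: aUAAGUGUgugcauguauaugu
The 3 mature microRNAs have 3 different seeds, so the family name does not stand for a shared seed among them. No other mature entry of that table carried the seed of miR-467f or of miR-467g, and 1 other, miR-668-5p, carried that of miR-467h. With no matched entry for the 43 cluster genes, this search could not show whether any of them carries 1 of these seeds.

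RefSeq (GRCm38.p6) lists a pair of Sfmbt2 promoter entries, both upstream of this intron. The 250 bases before each are shown on the plus strand, with CpG dinucleotides in capitals. Whether the 43 intronic genes are transcribed from these starts was not tested.
Upstream start, chr2:10370201-10370450: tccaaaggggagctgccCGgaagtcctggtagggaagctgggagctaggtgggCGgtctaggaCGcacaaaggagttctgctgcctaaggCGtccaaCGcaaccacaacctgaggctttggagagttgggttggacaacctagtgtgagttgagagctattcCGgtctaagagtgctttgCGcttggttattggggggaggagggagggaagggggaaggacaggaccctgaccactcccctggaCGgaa
Downstream start, chr2:10372186-10372435: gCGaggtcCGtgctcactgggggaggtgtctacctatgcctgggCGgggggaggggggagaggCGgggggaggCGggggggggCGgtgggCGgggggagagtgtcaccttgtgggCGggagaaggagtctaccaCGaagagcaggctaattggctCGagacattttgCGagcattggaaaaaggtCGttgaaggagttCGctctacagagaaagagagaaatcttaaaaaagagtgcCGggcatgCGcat
The first holds 8 CpG dinucleotides, a number reached by 43.0% of the promoter sequences of that length in the RefSeq table, and the second holds 15, reached by 27.3%. The motif TATAAA, searched on both strands, occurs in neither and in 12.4% of all promoter sequences.

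The total microRNA count was 139104 and 139360 in the EB columns and 557250 and 557643 in the ESC columns, so the EB library was 4.0 times shallower. Within each group, the columns differed by less than sampling noise, with a chi-square per degree of freedom of 0.284 for the EB pair and 0.235 for the ESC pair, where independent libraries give about 1. The mean of each pair was used as 1 sample (n = 1 per group), and the comparison has no replicate check and no p-value. Levels are given as scaled CPM, the count relative to a common library total after TMM (trimmed mean of M-values) scaling. Folds are EB over ESC on that scale, with exact 95% intervals that cover counting error only and compare these libraries, not the conditions. An entry was called when the scaled mean counts differed at least 2-fold, and was called measured when it passed a filter on low counts. The filter cutoff was a CPM value, so fewer counts were needed in the shallower EB library than in the ESC library. Counts are per precursor, so the arms of a hairpin cannot be told apart, and in bulk cultures a different share of expressing cells cannot be told apart from a different amount per cell.

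Both families were more abundant in the EB library, mir-467 by far more than mir-669. Of the 46 entries, 33 stood 2-fold or more higher in EBs, 0 stood 2-fold or more lower, 7 differed less and 6 were not measured. Over all 367 measured entries of the table, 33.5% were called higher and 30.2% were called lower. The median log2 fold of the 40 measured members was 1.25, beside 0.07 over all measured entries. Many of these members are numbered copies that are not separate measurements. With copies averaged into 1 and the scaling refitted, 13 of 17 measured names were called higher, beside 33.3% of all joined entries. The median log2 fold was then 1.57, beside 0.12 over all joined entries. The members together took 3.06% of the EB counts (exact Clopper-Pearson interval 2.97 to 3.15) and 0.791% of the ESC counts (0.768 to 0.815). With copies of one microRNA averaged into 1, the shares were 1.64% of EB counts (1.58 to 1.71) and 0.407% of ESC counts (0.390 to 0.424).

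**Figure D1:**
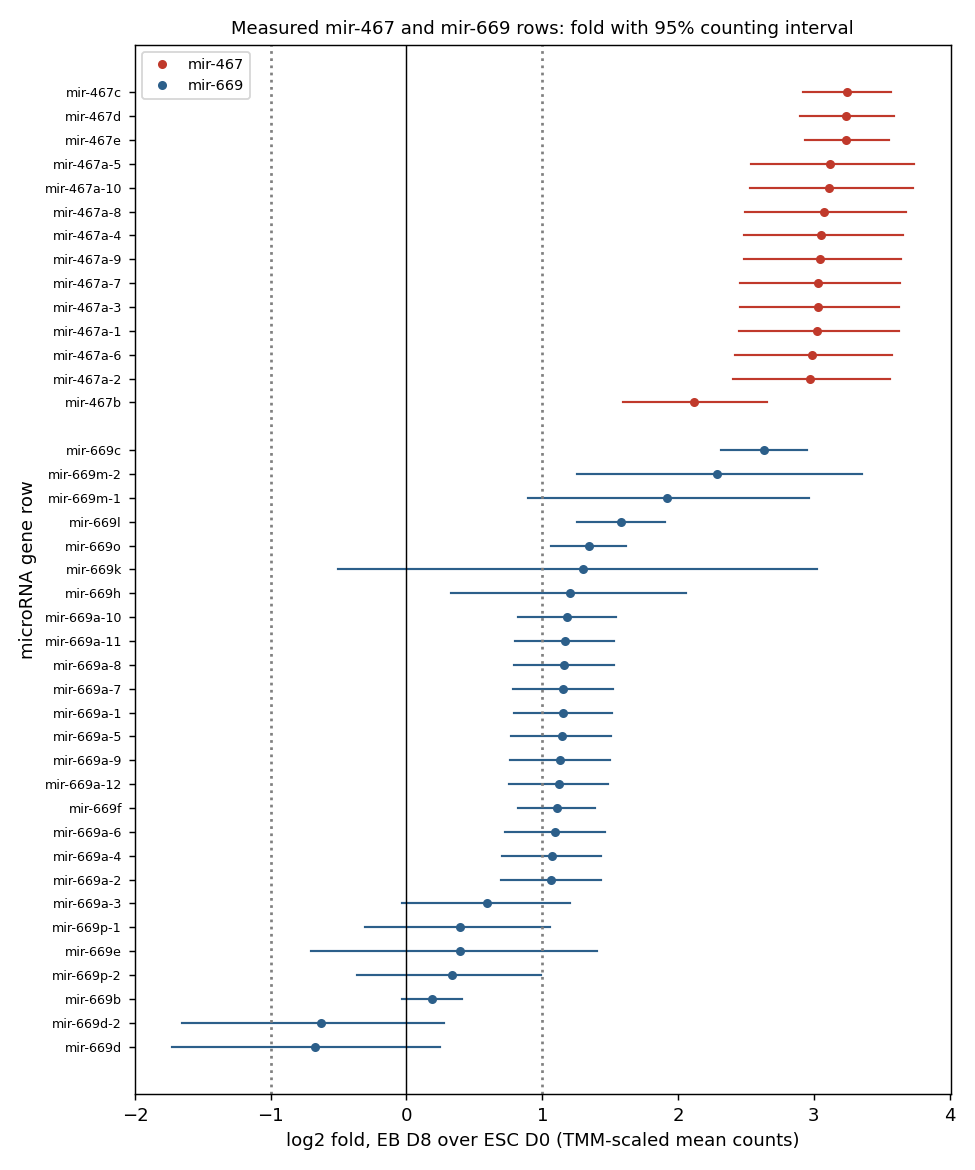
Log2 fold, EB D8 over ESC D0, of the 40 measured entries (points), with 95% counting intervals (lines); dotted lines mark 2-fold in either direction. All 14 measured mir-467 entries lie to the right of 2-fold, whereas the 26 measured mir-669 entries range from -0.68 to 2.63.

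The difference between the families held within each library, where no scaling enters. With all entries summed, mir-467 had 0.807 counts for each count of mir-669 in the EB library and 0.201 in the ESC library. This ratio was 4.02-fold higher in EBs (exact conditional interval 3.63 to 4.44), and 4.07-fold higher with copies averaged (3.56 to 4.67). The summed scaled counts were 8.48-fold higher for mir-467 (7.79 to 9.25) and 2.11-fold higher for mir-669 (2.01 to 2.23). With copies averaged, the folds were 8.66 (7.73 to 9.72) and 2.13 (1.98 to 2.29). Intervals on sums over all entries are too narrow if copies repeat the same reads. With copies averaged, mir-467 made up 47.7% of the counts of both families in the EB library and 18.3% in the ESC library.

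In the mir-467 family, 14 of 17 entries were measured, all in Sfmbt2, and all 14 were called higher in EBs under each of the 4 scalings tried. With numbered copies averaged, the most abundant names were mir-467e, mir-467c and mir-467d. No counting method is stated, so it is not known whether copies repeat the same reads or split them. With reads split, the sum over copies would be the level, and the order of names could differ. The entry mir-467e, at chr2:10505721-10505807, had 2297 and 2148 scaled CPM in the EB columns, against 238 and 233 scaled CPM in the ESC columns, from mean counts of 341 in the EB library and 119 in the ESC library. The entry mir-467c, at chr2:10473931-10474027, had 2107 and 1959 scaled CPM in the EB columns, against 216 and 213 scaled CPM in the ESC columns. The EB values of both entries lay about an order of magnitude above the ESC values.

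The entry mir-467d, at chr2:10507630-10507714, had 1844 and 1746 scaled CPM in the EB columns and 190.1 and 189.7 scaled CPM in the ESC columns. The fold was 9.46 for mir-467c (7.58 to 11.9), 9.44 for mir-467d (7.46 to 12.04) and 9.43 for mir-467e (7.63 to 11.7). These folds differ by far less than the width of their intervals, although mir-467c lies 33.7 kb upstream of mir-467d and mir-467e only 1.91 kb upstream of it. Whether the 3 entries share reads was not tested. By count, not divided by length, they ranked 45 (mir-467e), 48 (mir-467c) and 53 (mir-467d) among all entries of the EB library and 166 (mir-467e), 173 (mir-467c) and 182 (mir-467d) among those of the ESC library.

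The microRNA mir-467a has 10 copies in the intron. The copies had 87 to 95 counts in the EB columns and 32 to 40 counts in the ESC columns, so the scaled levels were 546 to 642 CPM in EBs and 63.2 to 79.2 CPM in ESCs. The variance of the mean counts over the copies was 0.0163 times their mean in the EB library and 0.0415 times in the ESC library, where separately counted copies with equal levels would give about 1. The copies therefore stand for 1 measurement and not for 10. Averaged, mir-467a was 8.25-fold higher in the EB library (5.55 to 12.5), and the copies ran from 7.85-fold for mir-467a-2, with mir-467a-6 and mir-467a-1 next at 7.91 and 8.13, to 8.71-fold for mir-467a-5.

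The lowest measured mir-467 fold was that of mir-467b, a microRNA reported in mouse macrophages to target lipoprotein lipase. This entry, at chr2:10481248-10481320, had 473 and 465 scaled CPM in the EB columns and 107 and 109 scaled CPM in the ESC columns, a fold of 4.35 (3.02 to 6.30). Its interval lies below the folds of all 13 other measured mir-467 entries, but 10 of these are copies of mir-467a. That interval lies below those of mir-467c, mir-467d and mir-467e, and overlaps that of averaged mir-467a (5.55 to 12.5).

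The 3 mir-467 genes outside Sfmbt2, whose sequences are printed above, were at or under 1 count in every column. The entry mir-467f had 1 count in each of the 4 columns, and mir-467g and mir-467h each had 1 count and 0 counts in the EB columns and 0 counts in both ESC columns. A floor of 3 counts corresponded to 21.5 to 21.6 CPM in the EB columns and 5.38 CPM in the ESC columns, so no difference was detectable for these genes at this depth.

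**Figure D2:**
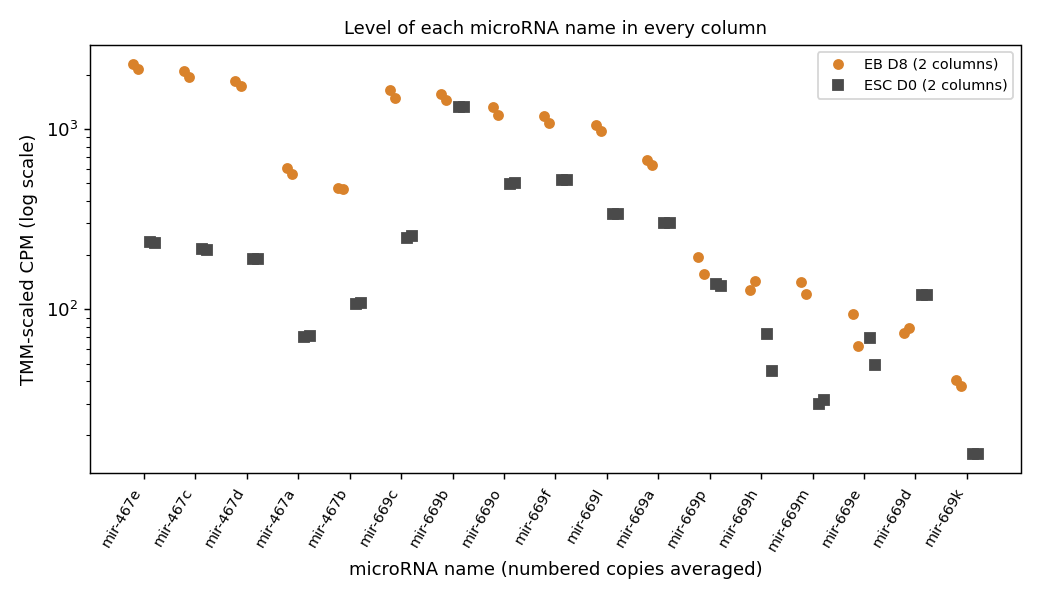
TMM-scaled CPM on a log axis for each measured microRNA name, with numbered copies averaged; circles are the EB D8 columns and squares the ESC D0 columns. For every mir-467 name the EB points sit well above the ESC points, while mir-669b, mir-669e and mir-669p lie close together and the EB points of mir-669d lie below its ESC points.

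The mir-669 family was mixed. Of its 29 entries, all in Sfmbt2, 26 were measured, 19 of them were called higher in EBs and 7 lay between log2 folds of -0.68 and 0.60. The interval included no difference for 8 of the 26, those 7 and mir-669k, whose mean counts were 6 in the EB library and 8 in the ESC library (2.47-fold, 0.706 to 8.11; named after its values were seen). This last entry passed the filter through the EB columns only, where its scaled level is the higher.

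The highest mir-669 fold was that of mir-669c, at chr2:10509296-10509404, which starts 1666 bases downstream of mir-467d. It had 1655 and 1488 scaled CPM in the EB columns, against 249.5 and 257 scaled CPM in the ESC columns, a fold of 6.19 (4.98 to 7.74). It thereby resembled the mir-467 entries more than the other abundant members of its own family. The pair mir-669m-2 and mir-669m-1 followed, with 18 to 22 counts in the EB columns and 14 to 17 counts in the ESC columns, and folds of 4.88 (2.39 to 10.2) and 3.79 (1.86 to 7.82). Their counts were low, and their intervals overlap that of mir-669c. The entry mir-669m-2 passed the filter through the EB columns only.

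Moderate differences were seen for the abundant entries mir-669l, mir-669o and mir-669f. The entry mir-669l, at chr2:10468971-10469068, had 1060 and 973 scaled CPM in the EB columns, against 339 and 340 scaled CPM in the ESC columns, a fold of 2.99 (2.39 to 3.74). The entry mir-669o, at chr2:10514300-10514395, had 1324 and 1206 scaled CPM in the EB columns and 495 and 502 scaled CPM in the ESC columns, a fold of 2.53 (2.09 to 3.07). For mir-669f the EB columns were at 1182 and 1080 scaled CPM and the ESC columns at 523 and 526 scaled CPM, a fold of 2.15 (1.77 to 2.62). The lower bound for mir-669f lies under 2-fold.

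The entry mir-669b, at chr2:10467790-10467886, was the most abundant single entry of both families in the ESC library and differed little. It had 1567 and 1457 scaled CPM in the EB columns, against 1325 and 1324 scaled CPM in the ESC columns, a fold of 1.14 (0.978 to 1.33). Among all entries it ranked 60 by count in the EB library, behind mir-467e, mir-467c, mir-467d and mir-669c, and 84 in the ESC library, ahead of every other member. In the quantile-normalized values its log2 fold was 0.96, against 0.19 here, so its size depended on scaling.

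The entries mir-669d and mir-669d-2 were the only measured members whose EB level lay below the ESC level with TMM scaling, library totals or DESeq2 size factors. They had 9 to 14 counts in the EB columns and 59 to 62 counts in the ESC columns, or 60.8 to 87.9 scaled CPM in EBs and 117 to 123 scaled CPM in ESCs. The folds were 0.625 (0.302 to 1.19) for mir-669d and 0.647 (0.317 to 1.21) for mir-669d-2, so at this depth neither was told apart from no difference. The fold was below 1 under each of the 4 scalings. The pair mir-669p-1 and mir-669p-2 had 157 to 196 scaled CPM in the EB columns and 132 to 141 scaled CPM in the ESC columns. The fold was 1.26 (0.777 to 1.99) for mir-669p-2, and 1.32 (0.810 to 2.08) for mir-669p-1, named after its values were seen, and both turned in the quantile-normalized values, to log2 folds of -0.18 and -0.15.

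The microRNA mir-669a has 12 copies, and miR-669a has been reported in mouse cardiac progenitors to restrain skeletal muscle differentiation. This microRNA falls outside the rule for entries described in full, given below, and was described after its values were seen. Of the copies, 11 had 101 to 113 counts in the EB columns and 153 to 171 counts in the ESC columns, with a variance over copies of 0.0689 times the mean in the EB library and 0.0595 times in the ESC library. Their folds were 2.09 to 2.27, just past 2-fold, with lower bounds down to 1.62. The remaining copy, mir-669a-3, had 35 and 33 counts in the EB columns and 73 and 75 counts in the ESC columns. It thus stood at 32.0% of the mean of the other copies in the EB library and at 46.4% in the ESC library, and its fold was 1.51 (0.976 to 2.30). The interval of that fold overlaps those of the other copies.

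The 3 mir-669 entries that were not measured, picked out once their values were known, were close to 0. The entry mir-669g had 2 counts in each EB column and 0 in each ESC column, mir-669i had 0 counts and 1 count in the EB columns and 0 counts and 1 count in the ESC columns, and mir-669j had 0 counts in all columns. All 3 lie in the same intron as the abundant members, so a place in the intron did not by itself come with detectable counts.

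**Figure D3:**
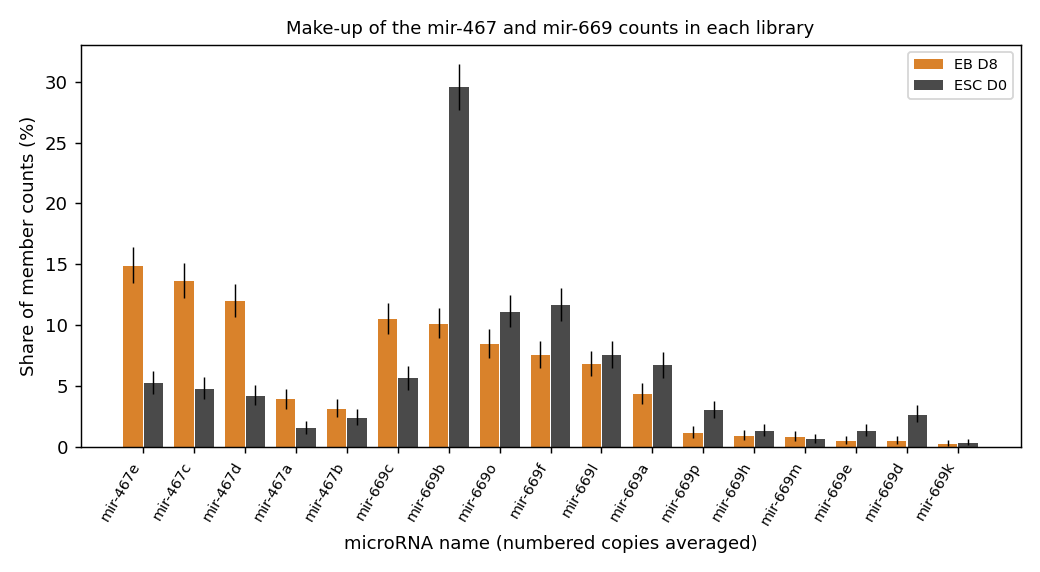
Share of the summed mir-467 and mir-669 counts taken by each measured microRNA name in EB D8 (left bars) and ESC D0 (right bars), numbered copies averaged, with exact 95% counting intervals. The share of mir-669b is 10.1% in EBs and 29.5% in ESCs, and that of mir-467e is 14.9% in EBs and 5.25% in ESCs.

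The make-up of the families by name differed accordingly. These shares are of counts not divided by length, and scaling between libraries does not enter them. Numbered copies are averaged, so the shares would differ if reads had been split among copies. The names mir-467c, mir-467d and mir-467e took 13.6%, 12.03% and 14.9% of the member counts in the EB library, against 4.79%, 4.23% and 5.25% in the ESC library. The share of mir-669c was 10.5% in the EB library (9.30 to 11.9) and 5.65% in the ESC library (4.73 to 6.68). The share of mir-669b was 10.1% in the EB library (8.93 to 11.4) and 29.5% in the ESC library (27.7 to 31.5). For each count of mir-669b there were 1.47 counts of mir-467e in the EB library and 0.178 in the ESC library, a ratio 8.27-fold higher (6.35 to 10.8). For mir-669d, with both copies averaged, the ratio to mir-669b was 0.558 times that in the ESC library, with an interval of 0.274 to 1.09 that includes no difference.

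Position along the intron did not order the folds by itself. The core of the cluster is a repeated unit in which a copy of mir-467a, or mir-467b, is followed by a copy of mir-669a or mir-669p. The starts of the 11 copies of mir-467a and mir-467b are 2413 to 4880 bases apart, with a median of 2454.5 bases. Each is followed by a mir-669a or mir-669p gene starting 507 to 518 bases downstream. In these 11 neighbouring pairs the mir-467 fold was 4.35 to 8.71 and the mir-669 fold 1.26 to 2.27, so the pairs did not overlap although their genes lie in 1 intron. Since the copies share counts, the 11 pairs are not separate measurements. The entries at the 5′ end of the cluster included both with an EB level below the ESC level, mir-669d and mir-669d-2, and also mir-669l, which starts 628 bases downstream of mir-669d and was 2.99-fold higher. Over the 40 measured entries Spearman's rho between their order along the gene and the log2 fold was 0.34. This is a description only, since numbered copies of one microRNA are not separate measurements.

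**Figure D4:**
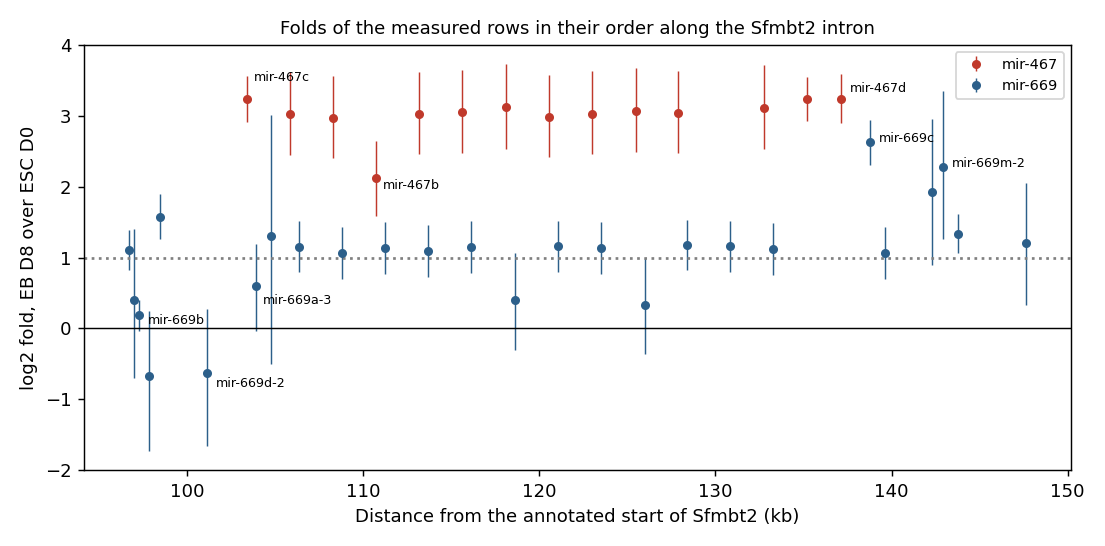
Log2 fold, EB D8 over ESC D0, of the 40 measured entries against the distance of each gene from the annotated start of Sfmbt2 in kb, with 95% counting intervals; the dotted line marks 2-fold. The mir-467 points form a band near 3 with mir-467b below it at 2.12, and the interleaved mir-669a and mir-669p points lie between 0.33 and 1.18.

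The repeat families mir-466 and mir-297, which also have genes in this cluster, were compared by the same naming rule. Their positions were not mapped, so it was not checked which of their entries lie in Sfmbt2. Of 35 entries, 31 were measured, and of these 22 were called higher in EBs, 0 were called lower and 9 differed less. Over all measured entries of the table, 33.5% were called higher and 30.2% were called lower. Their median log2 fold was 2.20, between 3.05 for measured mir-467 entries and 1.14 for measured mir-669 entries. All these counts, medians and sums take each numbered copy as an entry, although copies are not separate measurements. No copy-averaged value is given for mir-466 and mir-297. Their summed scaled counts were 3.32-fold higher in the EB library (3.11 to 3.54), against 8.48-fold for mir-467 and 2.11-fold for mir-669. The spread within mir-466 and mir-297, from log2 folds of -0.98 to 3.14, was wider than that within mir-669. Of a pair of microRNAs from other imprinted genes with placental expression, mir-483, in Igf2, had 7 counts in each EB column and 3 counts in each ESC column, a fold of 7.68 (1.75 to 46.0). That entry passed the filter through the EB columns only. The other, mir-675, made from H19, had 3 counts in each EB column and 0 counts in each ESC column, which is at the floor and allows no fold.

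Lists of microRNAs known from other cell types also differed between the libraries, and their part in the results was not tested. The ESC cluster miR-290 to miR-295 took 52.3% of EB counts and 53.9% of ESC counts. Of its 7 measured entries 5 were called lower and 1 higher, with a median log2 fold of -1.13 (range -2.89 to 2.04). The primed epiblast list, miR-302 and miR-367, took 6.53% of EB counts and 0.0341% of ESC counts, with 5 of 5 entries called higher. The neural list had 6 of 6 and the liver and endoderm list 3 of 3 measured entries called lower, and the blood list had 1 of 2 higher and 1 lower. Over all measured entries, 33.5% were called higher and 30.2% lower. The neural list consists of numbered copies of mir-124 and mir-9, and the liver and endoderm list includes copies of mir-194. Such copies may not be separate measurements. In summed counts, the neural list took 0.188% of EB counts and 0.957% of ESC counts, the liver and endoderm list 0.0223% of EB counts and 0.0805% of ESC counts, and the blood list 0.114% of EB counts and 0.253% of ESC counts. The endothelial entry lay under 2-fold. Of the 7 names in the muscle list, only 2 were among the entries analysed here, so the list was examined only in part. These 2, of which mir-1a-2 was at 0 in all columns, summed to 1 count in the EB library and 0 in the ESC library. The only placental marker in the lists, mir-675, is given above.

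The count of mir-669 entries past 2-fold depended on the scaling, while that of mir-467 did not. All 14 measured mir-467 entries stayed past 2-fold with TMM, library totals, DESeq2 size factors and the authors' quantile-normalized values. For mir-669 the number was 19 with each of the first 3 and 7 of 26 with the quantile-normalized values, under which the 11 like copies of mir-669a lay at log2 folds of 0.52 to 0.97. Over all entries the share called higher was 38.4% with library totals, 33.2% with DESeq2 size factors and 28.3% with quantile normalization. The share called lower was 26.4%, 31.6% and 31.9% in the same order. The median log2 fold over all entries was 0.35 with library totals, 0.01 with DESeq2 size factors and -0.19 in the quantile-normalized values, beside 0.07 with TMM. edgeR's quasi-likelihood test on the 4 columns called 35 members higher and 1 lower at an adjusted p under 0.05, beside 42.5% of all entries called higher and 39.2% called lower, but its spread comes from columns that differ less than counting error.

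**Figure D5:**
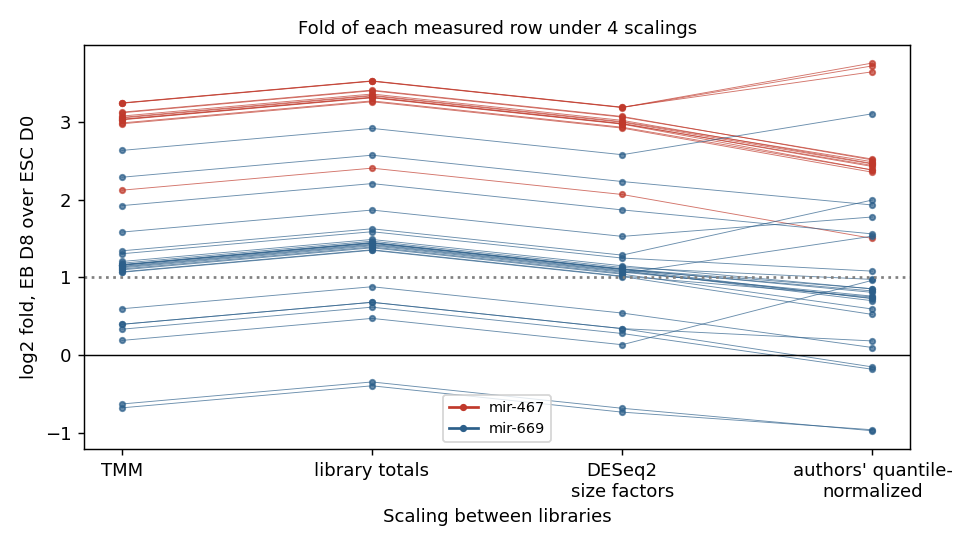
Log2 fold, EB D8 over ESC D0, of each of the 40 measured entries (points joined by lines) under 4 scalings between the libraries; the dotted line marks 2-fold. All mir-467 lines stay above the dotted line, whereas the band of mir-669a copies lies just above it with the first 3 scalings and below it in the quantile-normalized values.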

How the data were processed

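Small RNA libraries of 4 samples, 2 labelled as EBs at day 8 and 2 as ESCs at day 0, were analysed from 1 table. The authors deposited an original count per microRNA gene and column, with no normalization, per the file headers. They also deposited a normalized signal, whose sorted values were identical in all 4 columns, as after quantile normalization. No aligner, counter, genome build or microRNA database is stated (not given in the sources used here). Labels describe PCR amplification and no molecular identifiers, so intervals cover counting error only.

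The counts from mir-664 on, 170 rows and all of mir-669, sat 1 row too low and were moved up by 1. The rank correlation with the normalized signal was 0.355 to 0.541 before and 0.995 to 0.998 after the move. This left mir-99b without counts. Of 139 candidate sets within its ranks and the known total, 1 returned every normalized value and was used.

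The design kept the columns of a group as 1 sample where they differed by less than sampling noise. Counts were filtered with filterByExpr (minimum count 10, minimum total 15) and scaled by TMM in edgeR 4.0.16 on the whole table, and means of columns were compared. The minimum count was applied as CPM at the median library size, so an entry with under 10 counts in each EB column could pass. edgeR's quasi-likelihood test, without and with the replicate number as a block, was an alternative. TMM set every log2 fold 0.28 below library totals. Intervals are exact conditional binomial or Clopper-Pearson at 95%. Where a group had 0 counts, a floor of 3 counts per library was used. Calculations used R 4.3.3, DESeq2 1.42.0 (size factors only), Python 3.11.15 and scipy 1.17.1, and the fold calculation was tested on simulated counts.

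Entries described in full were, per family, the 5 most abundant names with copies averaged, the 4 highest and 4 lowest folds, and genes outside Sfmbt2. Members and lists were chosen with earlier results of these data known.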

Additional observations from a re-analysis of the deposited data

How the results depend on the processing

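With TMM, 33 members were called higher in EBs. The number was 21 in the quantile-normalized values and 13, of 17 measured names, when numbered copies were averaged into 1 entry and the scaling refitted, which leaves fewer entries to count (33.3% of all joined entries were called higher). It was 33 with library totals, DESeq2 size factors, no filter or mir-99b left out. No member was 2-fold lower under any scaling, filter or left-out column. The summed fold of mir-467, 8.48, was 10.3 with library totals. That of mir-669, 2.11, was 2.23 in the quantile-normalized values and 2.57 with library totals. Averaging copies gave 8.66 (7.73 to 9.72) for mir-467 and 2.13 (1.98 to 2.29) for mir-669 at the same scaling, and 10.1 and 2.49 where the filter and the TMM factors were also refitted on the averaged entries. Leaving out 1 column gave 8.17 to 10.3 for mir-467 and 2.04 to 2.56 for mir-669, with 31 to 33 members called higher. The columns of a group differ less than counting error, so this range, which refits the TMM factors (1.06 and 1.14 for the EB columns) and the filter, is no replicate check. edgeR's quasi-likelihood test on the 4 columns called 35 members higher and 1 lower, mir-669d, named after its values were seen (log2 fold -0.67, adjusted p = 0.0369), at an adjusted p under 0.05, and the fit with the replicate block also called 35 higher and the same 1 lower. Neither fit has a spread between independent samples. Few EB counts leave wide intervals, as for mir-669k, 0.706 to 8.11.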
